A study of Homo sapiens with 8 samples.

Results

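Messenger RNA of 10 genes whose products leave the cell or sit on its surface and act on vessels or as hormones in low oxygen was followed in colorectal cancer (CRC) lines with and without hypoxia. The genes were VEGFA, VEGFB, VEGFC and PGF, ANGPTL4, ADM, EFNA1 and EFNA3, and STC1 and STC2. They were chosen by symbol, and all 10 were found among the 54261 genes of the count table. Expression was measured by sequencing total RNA after removal of ribosomal RNA, with 1 library for each line and treatment. The normal group held untreated NCM460 and HIEC6, lines of normal intestinal epithelium (n = 2 lines). The CRC group held untreated DLD1, HCT116 and HCT8, lines from colorectal tumors (n = 3 lines), and the hypoxia group held the same lines kept under hypoxia (n = 3). All 8 libraries were labelled passage 5, and the labels name no introduced allele or construct. The oxygen level and the duration of hypoxia are not given in the sources used here, and the study's methods describe the untreated libraries only. Replicates of a group were therefore different lines, and every error below is a spread between lines.

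When oxygen falls, hydroxylation of the HIF alpha subunits slows, the subunits escape degradation, and the HIF dimer binds a short DNA motif near its target genes. Several targets encode secreted factors that call in new vessels, of which VEGFA is the best known in colorectal tumors. The members differ in how they act. The VEGF ligands bind receptor tyrosine kinases of endothelial cells, ANGPTL4 inhibits lipoprotein lipase and also acts on vessels, ADM is a vasodilator peptide, the ephrin-A ligands are anchored to the membrane and bind Eph receptors on neighbouring cells, and the stanniocalcins are secreted glycoproteins linked to calcium and phosphate handling.

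Depth ran from 45519306 counts in HCT8 with hypoxia to 57374239 in DLD1 with hypoxia. Levels are given as CPM, the count of a gene scaled to a column total of 1e+06, and the floor of 3 counts was worth 0.0523 to 0.0659 CPM. Intervals and floors cover counting error only. Untreated and hypoxia CRC libraries share no run label, so run and treatment cannot be told apart. The libraries of NCM460, DLD1 under hypoxia and HCT116 under hypoxia each carry 2 run labels. The library labelled NCM460 resembled that of HCT116 (Pearson r = 0.983 of log2(CPM + 1) across 14977 genes, which are not independent replicates), against 0.779 with HIEC6, so values are given with and without it. Between untreated CRC lines, r was 0.918 for DLD1 with HCT8, against 0.833 for DLD1 and 0.840 for HCT8 with HCT116. The independence of DLD1 and HCT8 as replicates was not tested. HIEC6 held KRT8 at 4290 CPM and KRT18 at 3725 CPM, but the epithelial gene EPCAM was at 0.176 CPM and CDX2 at 0.0529 CPM. VIL1 was at 0.0705 CPM in HIEC6, but also at 0.0813 CPM in NCM460 and 0.0383 CPM in HCT116. The mesenchymal gene VIM was at 1223 CPM in HIEC6, whereas COL1A2 was at 0.458 CPM, below all untreated CRC lines. In HIEC6, 3 of 9 epithelial and 7 of 8 mesenchymal markers exceeded 1 CPM, against 6 to 8 and 5 to 6 in the untreated CRC lines. The extraction text in the labels names a brain tissue, whereas the other labels name cell lines. The neuronal marker RBFOX3 reached at most 0.305 CPM and the astrocyte marker GFAP at most 0.0950 CPM, while SYT1 stood at 68.8 CPM in NCM460, 128 CPM in HCT116 and 159 CPM in HCT116 under hypoxia and at most 1.43 CPM elsewhere. GAD1 was read in every library, from 5.22 CPM in untreated HCT8 to 20.1 CPM in HCT116 under hypoxia. SLC17A7 reached at most 2.44 CPM, in HCT116 under hypoxia. In RNA of whole cultures, fewer cells of a type and less RNA per cell cannot be told apart.

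In GENCODE release 44 on GRCh37, the VEGF genes lie apart, VEGFA at chr6:43737921-43754224, VEGFB at chr11:64002056-64006736, VEGFC at chr4:177604689-177714076 and PGF at chr14:75408537-75422329. ANGPTL4 lies at chr19:8428173-8439254 and ADM at chr11:10326620-10328944. EFNA3 (chr1:155051313-155060014) and EFNA1 (chr1:155100352-155107375) are on the same strand, and STC1 (chr8:23699442-23712319) and STC2 (chr5:172741726-172755450) are on different chromosomes. An antisense gene, ENSG00000272114, overlaps exons of VEGFA, and without a stated strand setting the reads of the overlap cannot be told apart.

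ANGPTL4 was 15.7-fold, 113-fold and 28.8-fold higher by CPM in DLD1, HCT116 and HCT8 when these were kept under hypoxia. ADM was higher in all 3 lines and most of all in HCT116, EFNA3 was higher in all 3 by 2.28-fold to 4.42-fold, and STC1 went from near the floor to a clear signal, most of all in HCT8. VEGFA was higher by 2.83-fold in HCT116 and 3.57-fold in HCT8 but only by 1.14-fold in DLD1. PGF and EFNA1 had no common direction by CPM.

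**Figure D1:**
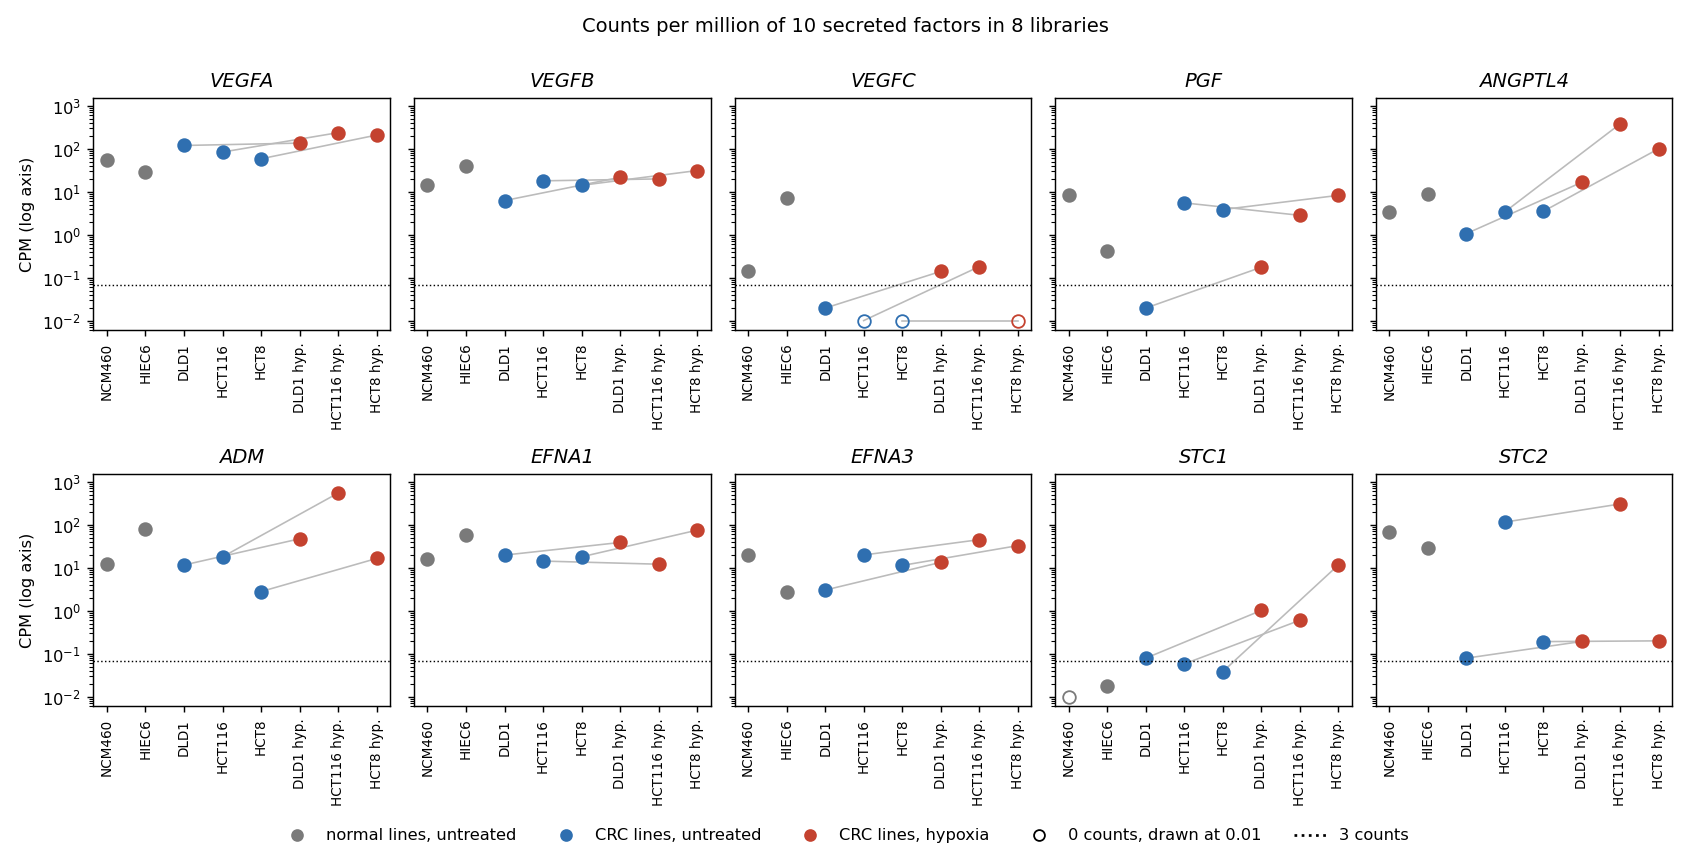
CPM (log axis) of each of the 10 genes in the 8 libraries, coloured by group, with counts of 0 set apart at the bottom of the axis. ANGPTL4 lies between 1.05 and 8.71 CPM in the untreated libraries and between 16.6 and 384 CPM under hypoxia, whereas STC2 is at or below 0.198 CPM in DLD1 and HCT8 in both states and at 115 and 304 CPM in HCT116.

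Hypoxia was set against no treatment over the 6 CRC libraries with edgeR's quasi-likelihood test, in which 21045 genes entered, each counted 10 times or more in 2 or more libraries. Without the cell line in the model, 0 genes had a Benjamini-Hochberg adjusted p under 0.05 (0% of genes), 607 had an unadjusted p under 0.05, and DESeq2 called 51. The 9 members tested had a median log2 fold change of 1.61, against 0.06 over all genes, and 5 of them (VEGFA, ANGPTL4, ADM, EFNA1 and STC1) had an unadjusted p under 0.05, and each had an adjusted p of 0.9999 in edgeR's quasi-likelihood test. VEGFC did not pass the filter. Since each hypoxia library has an untreated library of its own line, a second fit took the line as a block. It called 200 genes, of which 156 were higher (0.741% of genes), and among the members it called ANGPTL4, EFNA3 and STC1. STC1 passed the filter only through its hypoxia libraries, so a difference was a condition of its being tested. Leaving out both HCT8 libraries left 6 genes called, all higher (0.0304% of genes), and none of the 9 members. Without DLD1 the fit called 292 genes, of which 178 were higher (0.894%), and 5 members, and without HCT116 it called 738 genes, of which 461 were higher (2.36%), and 6 members. DESeq2 with the same block called 1666 genes, 955 of them higher (4.54%), and 8 members, all but PGF.

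VEGFA, the main driver of endothelial growth and permeability, had the highest level per transcript length of all 10 genes in untreated DLD1 and HCT8. Its CPM in DLD1, HCT116 and HCT8 was 119, 83.6 and 58.3 without treatment, and 135, 237 and 208 with hypoxia. The groups did not overlap, though DLD1 under hypoxia exceeded untreated DLD1 by little. The fold was 1.14 in DLD1 (95% counting interval 1.10 to 1.18), 2.83 in HCT116 (2.73 to 2.93) and 3.57 in HCT8 (3.43 to 3.72). VEGFA thus gained 16.2 CPM in DLD1, 153 CPM in HCT116 and 150 CPM in HCT8, and the line that began highest gained least. With the line as a block its log2 fold change was 1.32 (SE 0.33, adjusted p = 0.104, edgeR's quasi-likelihood test), which did not pass, whereas blocked DESeq2 gave an adjusted p of 0.00707. The blocked edgeR fit gave an adjusted p of 0.0162 without DLD1, 0.102 without HCT116 and 0.557 without HCT8.

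VEGFB, a ligand of VEGFR1, had another order across lines. It stood at 6.21, 17.9 and 14.1 CPM in DLD1, HCT116 and HCT8 without treatment, and at 21.6, 19.8 and 31.1 CPM under hypoxia. All hypoxia libraries lay above all untreated ones, but HCT116 moved little by column totals. In that line the log2 ratio of VEGFB was 0.15 by column totals, 0.50 with TMM scaling and 0.56 with upper-quartile scaling. The fold was 3.48 in DLD1 (3.07 to 3.95), 1.11 in HCT116 (1.02 to 1.21) and 2.21 in HCT8 (2.02 to 2.42), so DLD1, lowest for VEGFA, was highest here. The blocked log2 fold change was 1.16 (SE 0.28, adjusted p = 0.0989, edgeR's quasi-likelihood test), with an adjusted p of 0.00451 by blocked DESeq2. By blocked edgeR the adjusted p was 0.00875 without HCT116, 0.217 without DLD1 and 0.509 without HCT8.

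PGF, placental growth factor, another VEGFR1 ligand, went in different directions. Its CPM was 0.0195, 5.49 and 3.84 in DLD1, HCT116 and HCT8 without treatment, against 0.174, 2.82 and 8.22 under hypoxia. DLD1 had hardly any PGF in either state, at 1 and 10 counts, with a ratio of 8.93 and a counting interval of 1.27 to 387. In HCT116 the level was 0.513 times the untreated one (0.419 to 0.625) and in HCT8 it was 2.14 times (1.80 to 2.55), and the mean log2 ratio of 1.10 came with an SD of 2.06 (n = 3 lines). No call was made with the block (log2 fold change 0.63, SE 0.57, adjusted p = 0.601, edgeR's quasi-likelihood test).

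VEGFC, the ligand of lymphatic VEGFR3, was barely read in the CRC lines. Untreated DLD1 gave 1 count, HCT116 gave 0 and HCT8 gave 0, and their hypoxia libraries gave 8, 10 and 0. HCT8 gave no count in either state, which allows up to 0.0570 CPM untreated and 0.0659 CPM under hypoxia. The ratio in DLD1 was 7.14 (0.957 to 317), and HCT116 was at least 3.14-fold higher than the floor of its untreated library.

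ANGPTL4 was low in every untreated CRC line, at 1.05, 3.39 and 3.49 CPM in DLD1, HCT116 and HCT8, and reached 16.6, 384 and 101 CPM under hypoxia. The lowest hypoxia library was above every untreated one, HIEC6 included. The folds were 15.7 (12.0 to 21.1), 113 (97.6 to 132) and 28.8 (24.9 to 33.6), whose counting intervals do not overlap, though with 1 library per state the spread between cultures of a line was not measured. Within each line its ratio stood at percentile 99.86 (DLD1), 99.98 (HCT116) and 99.93 (HCT8) of the genes with at least 10 counts in either library. ANGPTL4 rose with the line as a block (log2 fold change 5.38, SE 0.59, adjusted p = 0.0113, edgeR's quasi-likelihood test), and the adjusted p was 0.107 without HCT8.

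ADM, adrenomedullin, started from unequal levels. Untreated DLD1, HCT116 and HCT8 had 11.5, 17.8 and 2.77 CPM, and the hypoxia libraries had 46.9, 545 and 16.4 CPM. Every line was higher under hypoxia, yet the groups overlapped, because HCT8 under hypoxia stayed below untreated HCT116. The fold was 4.07 in DLD1 (3.72 to 4.46), 30.6 in HCT116 (28.7 to 32.7) and 5.90 in HCT8 (4.94 to 7.10). The blocked log2 fold change of 3.26 (SE 0.59) had an adjusted p of 0.0516 in edgeR's quasi-likelihood test, just above the threshold of 0.05, and it was 0.0499 with upper-quartile scaling, 0.00551 by blocked DESeq2 and 0.275 without HCT8.

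EFNA1 and EFNA3, neighbours on chromosome 1 that both bind EphA receptors, differed in their response. EFNA3 went from 3.01 to 13.3 CPM in DLD1, from 19.7 to 44.8 CPM in HCT116 and from 11.3 to 32.5 CPM in HCT8. The order of the lines was the same in both states, and DLD1 under hypoxia lay below untreated HCT116. The fold was 4.42 in DLD1 (3.71 to 5.29), 2.28 in HCT116 (2.12 to 2.45) and 2.89 in HCT8 (2.62 to 3.18). Its log2 ratio had the smallest SD across lines of the 9 members measured in all 3, at 0.48 around a mean of 1.62. EFNA3 rose with the line as a block (log2 fold change 1.75, SE 0.23, adjusted p = 0.0187, edgeR's quasi-likelihood test), and the adjusted p was 0.217 without HCT8. A readthrough transcript of EFNA4 and EFNA3 overlaps its exons on the same strand, so reads of the overlap cannot be assigned with certainty.

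EFNA1 had 19.6, 14.2 and 17.9 CPM untreated and 38.6, 12.0 and 74.7 CPM under hypoxia. It was 1.97-fold higher in DLD1 (1.83 to 2.12) and 4.18-fold higher in HCT8 (3.89 to 4.50). In HCT116 the CPM ratio was 0.845 (0.760 to 0.940), a log2 ratio of -0.24 by column totals that became 0.11 with TMM scaling and 0.17 with upper-quartile scaling, so its direction there depended on the scaling. The shift was general in that pair, where the median log2 ratio of all genes was -0.35 by column totals and 0.01 with TMM. Relative to that median, EFNA1 stood slightly above the typical gene in HCT116, at percentile 54.8. Its blocked log2 fold change was 1.07 (SE 0.35, adjusted p = 0.166, edgeR's quasi-likelihood test), with an adjusted p of 0.0453 by blocked DESeq2. By blocked edgeR the adjusted p was 0.00875 without HCT116, 0.251 without DLD1 and 0.635 without HCT8.

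STC1 was at or near the floor without hypoxia, with 4, 3 and 2 counts in DLD1, HCT116 and HCT8, and had 58, 33 and 526 counts under hypoxia. In CPM these were 0.0781, 0.0574 and 0.0380 against 1.01, 0.596 and 11.6. HCT8 stood apart, with the lowest untreated count and the highest under hypoxia. The ratio was 12.9 in DLD1 (4.79 to 49.1), 10.4 in HCT116 (3.25 to 52.9) and 304 in HCT8 (83.8 to 2519), and the few untreated counts make these intervals wide. STC1 rose with the line as a block (log2 fold change 5.31, SE 0.93, adjusted p = 0.0473, edgeR's quasi-likelihood test), and the adjusted p was 0.376 without HCT8 and 0.0797 with limma-trend.

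STC2, a related hormone that is also a target of the amino acid response factor ATF4, differed most between lines. Untreated counts were 4, 5997 and 10 in DLD1, HCT116 and HCT8, and those under hypoxia were 11, 16864 and 9. HCT116 held 115 CPM untreated and 304 CPM under hypoxia, whereas no library of DLD1 or HCT8 exceeded 0.198 CPM. The untreated level of HCT116 was 1470-fold that of DLD1 (574 to 5396) and 604-fold that of HCT8 (328 to 1261). In HCT116 hypoxia gave a fold of 2.65 (2.57 to 2.73). The ratios of 2.45 in DLD1 (0.727 to 10.6) and 1.04 in HCT8 (0.374 to 2.85) rested on few counts, so a change was not detectable at this depth. The blocked log2 fold change was 1.38 (SE 0.33, adjusted p = 0.0989, edgeR's quasi-likelihood test), and blocked DESeq2 gave an adjusted p of 0.0247. Both values rest mainly on the HCT116 pair. Without HCT116 the blocked edgeR fit gave 0.62 (SE 1.06, adjusted p = 0.807).

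**Figure D2:**
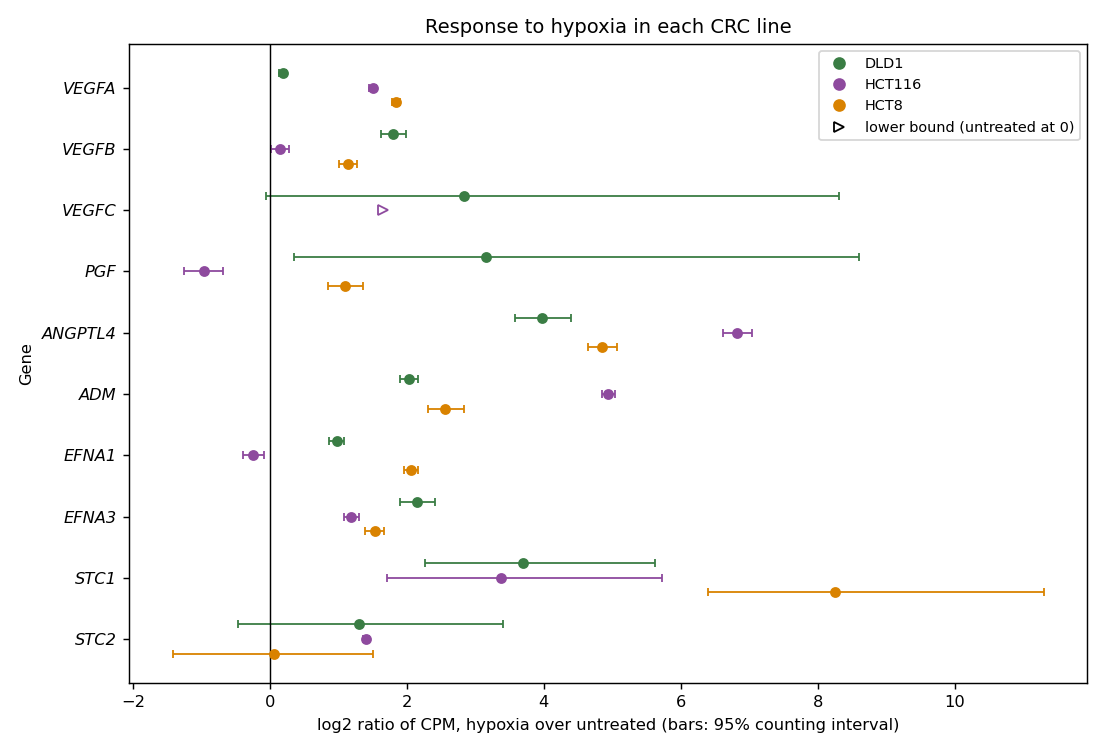
Log2 ratio of CPM, hypoxia over untreated, of each gene in DLD1, HCT116 and HCT8, with 95% counting intervals and an open triangle for a lower bound. The points of VEGFA, VEGFB, ANGPTL4, ADM, EFNA3, STC1 and STC2 lie right of 0 in all 3 lines, while PGF and EFNA1 fall left of 0 in HCT116. The intervals of STC2 in DLD1 and HCT8 cross 0.

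The size of the response was compared across lines as a description, since each line had 1 library per state. For the members with 10 or more counts in either library the median log2 ratio by line was 2.03 (DLD1), 1.45 (HCT116) and 1.84 (HCT8), against 0.00, -0.35 and 0.01 over all genes with this minimum. In DLD1 the median leaned on genes of few counts, and with 1 CPM added to both libraries the medians of the members with a ratio were 0.92, 0.87 and 1.82. Among the members that met this minimum, 7 of 9 were over 2-fold higher in DLD1, where 11.2% of all genes were, 7 of 10 in HCT116, where 12.4% were, and 8 of 9 in HCT8, where 14.4% were. PGF, STC1 and STC2 in DLD1, VEGFC and STC1 in HCT116 and STC1 in HCT8 met the minimum only through the hypoxia library, so a higher level was a condition of their entry. Of the members with 10 or more counts when untreated, 4 of 6, 5 of 8 and 7 of 8 were over 2-fold higher in DLD1, HCT116 and HCT8, against 5.31%, 6.58% and 9.12% of genes. The lines differed in which gene led. By column totals HCT116 had the largest ratios of ANGPTL4 and ADM, HCT8 had the largest of VEGFA, EFNA1 and STC1, and DLD1 had the largest of VEGFB and EFNA3. With TMM scaling the log2 ratio of VEGFA was 1.86 in HCT116 and 1.84 in HCT8, so its leading line depended on the scaling. The summed CPM of the 10 genes went from 161 to 274 in DLD1, from 277 to 1550 in HCT116 and from 112 to 483 in HCT8. Of the 9 members tested, VEGFA, VEGFB, ANGPTL4 and STC1 had all 3 hypoxia libraries above all 3 untreated ones, as did 3.06% of all genes tested. STC1 passed the filter of that fit only through its hypoxia libraries, so a difference was a condition of its being counted. A further pattern, a higher level under hypoxia in each of the 3 lines, held for 7 of the 9 (all but PGF and EFNA1) and for 16.2% of genes. The 7 include STC1, with the same limit, and STC2. STC2 had 10 and 9 counts in HCT8 and 4 and 11 in DLD1, so its direction in these lines was not resolved. The summed CPM of the mesenchymal markers went from 13.3 to 93.7 in DLD1, from 45.7 to 175 in HCT116 and from 12.95 to 17.6 in HCT8. FN1 gained most in DLD1 (5.47 to 55.8 CPM) and in HCT116 (14.2 to 92.6 CPM). The list did not move as a whole, since ZEB1 went from 1.03 to 1.29 CPM in DLD1 and TWIST1 fell from 2.28 to 1.61 CPM in HCT116. The part of these markers in the members' values was not tested. The 6 endothelial markers summed to between 1.48 and 13.2 CPM in all libraries.

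**Figure D3:**
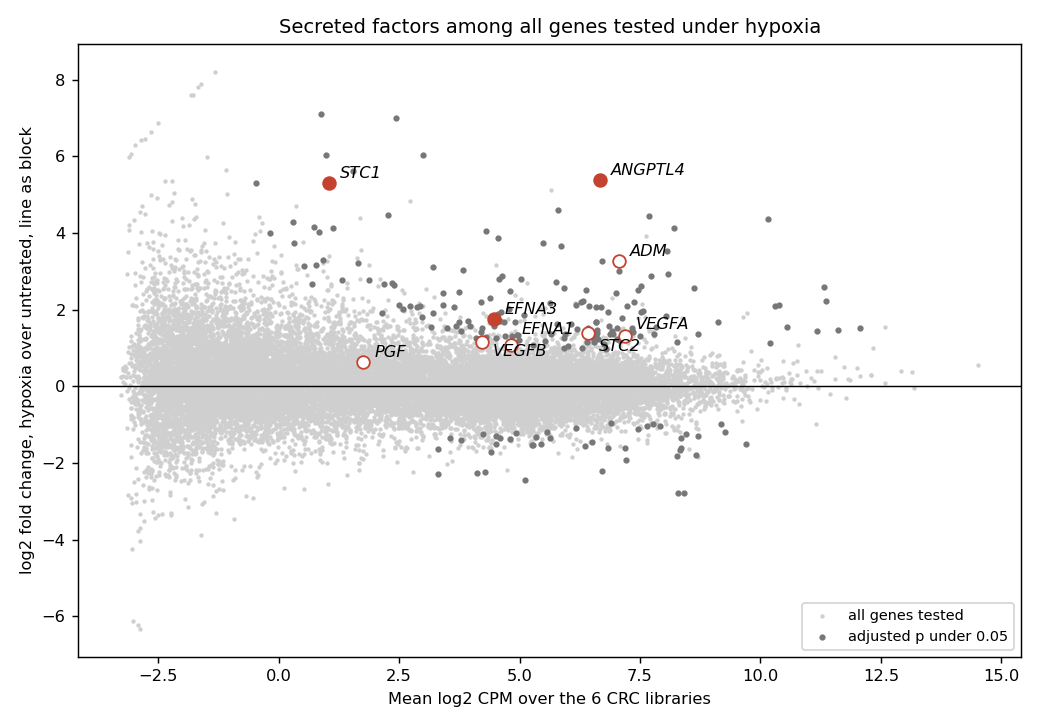
Log2 fold change under hypoxia from the blocked fit (y axis) against mean log2 CPM (x axis) for all 21045 genes tested, with the 9 tested members marked. The members lie above 0, from PGF at 0.63 to ANGPTL4 at 5.38.

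Between genes, levels were compared as CPM per kb of the canonical transcript. VEGFA led in DLD1 and HCT8 in both states, at 33.0 and 16.1 CPM per kb untreated and 37.5 and 57.6 CPM per kb under hypoxia. In HCT8 under hypoxia ANGPTL4 came close to it, at 53.9 CPM per kb. HCT116 was unlike both, with STC2 first when untreated (27.0 CPM per kb) and ADM (365 CPM per kb) and ANGPTL4 (205 CPM per kb) ahead of STC2 (71.6 CPM per kb) and VEGFA (65.6 CPM per kb) under hypoxia. In HIEC6 ADM was first, at 52.7 CPM per kb, and EFNA1 next, at 36.2 CPM per kb.

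The HIF core motif was searched in RefSeq promoter sequences (GRCh38.p14), whose table matched 8 of the 10 members with 9 entries, PGF having 2. Searched were ACGTG and GCGTG, 5 letters each, on both strands (CACGT and CACGC), within 250 bases before the start. A match was present in 8 of the 9 entries and in 43.2% of all 35116 entries, so a match is common and is a description only. Shown, 5′ to 3′ on the strand of the gene with matches in capitals, are the windows of ANGPTL4 and EFNA3, which rose with the block, of ADM, which lay next to the threshold, and of STC2, whose level split by line. The window of ANGPTL4 lies at chr19:8363905-8364154 on the plus strand, that of ADM at chr11:10304823-10305072 on the plus strand, that of EFNA3 at chr1:155078587-155078836 on the plus strand and that of STC2 at chr5:173328448-173328664 on the minus strand, and the last is shortened to 217 bases where an annotated transcript begins.
ANGPTL4: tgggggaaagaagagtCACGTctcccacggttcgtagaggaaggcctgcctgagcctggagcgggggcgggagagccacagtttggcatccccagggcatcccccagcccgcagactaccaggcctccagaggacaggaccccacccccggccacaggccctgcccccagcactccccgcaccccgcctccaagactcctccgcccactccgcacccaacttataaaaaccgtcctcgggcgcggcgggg
ADM: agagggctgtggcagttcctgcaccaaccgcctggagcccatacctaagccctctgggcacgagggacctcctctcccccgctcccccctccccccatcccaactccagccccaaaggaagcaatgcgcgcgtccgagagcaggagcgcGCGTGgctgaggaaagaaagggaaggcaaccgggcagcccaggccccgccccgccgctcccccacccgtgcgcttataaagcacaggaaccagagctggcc
EFNA3: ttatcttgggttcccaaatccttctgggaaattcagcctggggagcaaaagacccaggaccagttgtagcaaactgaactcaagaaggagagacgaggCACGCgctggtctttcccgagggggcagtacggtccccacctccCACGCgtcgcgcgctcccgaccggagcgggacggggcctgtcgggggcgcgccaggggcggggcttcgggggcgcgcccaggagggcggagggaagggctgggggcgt
STC2: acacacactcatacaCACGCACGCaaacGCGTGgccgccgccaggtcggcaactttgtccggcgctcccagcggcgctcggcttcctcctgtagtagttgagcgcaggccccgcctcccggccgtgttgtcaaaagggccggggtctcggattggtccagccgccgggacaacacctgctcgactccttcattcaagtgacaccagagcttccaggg
ANGPTL4 has 1 match at -234, ADM 1 at -101, EFNA3 2 at -152 and -108, and STC2 3 at -235, -231 and -222, of which the first pair overlap by 1 base. EFNA1 has 1 match at -229, VEGFB 1 at -61 and VEGFC, barely read in the CRC lines, 1 at -59. Of the 2 entries of PGF, which had no common direction, 1 has a match, at -162.

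Without hypoxia, HIEC6 had the highest level of VEGFB, VEGFC, ANGPTL4, ADM and EFNA1 among the 5 untreated lines, and the lowest of VEGFA and EFNA3. CRC and normal lines were compared over these libraries with edgeR's quasi-likelihood test, in which 19964 genes were tested and 0 had an adjusted p under 0.05 (0%), 542 had an unadjusted p under 0.05, and DESeq2 called 131. None of the 8 members tested was called by either tool, and VEGFC and STC1 did not pass the filter. The values follow for each normal line, since the pair differed widely.

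ADM was at 78.7 CPM in HIEC6, against 10.7 ± 7.55 CPM (SD, n = 3) in the CRC lines and 12.0 CPM in NCM460. EFNA1 was at 56.1 CPM in HIEC6, against 17.2 ± 2.74 CPM in the CRC lines and 16.3 CPM in NCM460. VEGFB was at 39.8 CPM, against 12.7 ± 5.96 CPM and 14.6 CPM. ANGPTL4 completed the set at 8.71 CPM, against 2.65 ± 1.38 CPM and 3.29 CPM. In each case HIEC6 lay above all 3 CRC lines, by 7.35-fold, 3.26-fold, 3.12-fold and 3.29-fold over their mean, while NCM460 lay within their range. These 4 of 8 tested members compare with 22.1% of all genes in which HIEC6 exceeded all 3 CRC lines. With NCM460 left out, and the lone HIEC6 library assumed to vary like the CRC lines, the log2 difference from the CRC lines was 3.09 for ADM (SE 1.02, adjusted p = 0.292), 1.97 for EFNA1 (SE 0.34, adjusted p = 0.190), 1.90 for VEGFB (SE 0.67, adjusted p = 0.309) and 1.99 for ANGPTL4 (SE 0.86, adjusted p = 0.367), with no call by edgeR's quasi-likelihood test. With both normal lines the adjusted p was 0.999 for each of them.

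The HIEC6 levels were also above some hypoxia libraries. ADM in untreated HIEC6 (78.7 CPM) exceeded DLD1 and HCT8 under hypoxia, at 46.9 and 16.4 CPM, and VEGFB in HIEC6 (39.8 CPM) exceeded all 3 hypoxia libraries, of which HCT8 was highest at 31.1 CPM. ANGPTL4 did not share this, since its HIEC6 level of 8.71 CPM was below the lowest hypoxia level of 16.6 CPM.

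VEGFA was lower in both normal lines than in any CRC line, at 29.4 CPM in HIEC6 and 54.6 CPM in NCM460, against 58.3 CPM in HCT8, the lowest CRC line, but with TMM scaling NCM460 (54.5 CPM) was above HCT8 (50.4 CPM). EFNA3 had 2.77 CPM in HIEC6, just under the 3.01 CPM of DLD1 and within the CRC range under TMM scaling, and 20.0 CPM in NCM460. HIEC6 lay below all 3 CRC lines for these 2 of 8 tested members and for 42.1% of all genes tested. The log2 difference for VEGFA between the CRC and both normal lines was 0.90 (SE 0.47, adjusted p = 0.999, edgeR's quasi-likelihood test). PGF was at 0.406 CPM in HIEC6 and 8.32 CPM in NCM460, with the CRC lines from 0.0195 to 5.49 CPM.

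VEGFC had a level well above the floor in HIEC6 alone of the 8 libraries, at 414 counts (7.30 CPM). This was 51.3-fold above NCM460 (24.7 to 128), which had 7 counts, and at least 125-fold above the floor of each CRC line. STC2 was read in HIEC6 (29.2 CPM), NCM460 (66.9 CPM) and HCT116 (115 CPM), whereas DLD1 and HCT8 were near the floor. HIEC6 exceeded DLD1 by 374-fold (146 to 1374) and HCT8 by 154-fold (83.4 to 321). STC1 had 1 count in HIEC6 and 0 in NCM460, so no fold is given. In NCM460 the ratio to HCT116 lay between 0.583 (STC2) and 1.51 (PGF) for the 8 tested members.

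**Figure D4:**
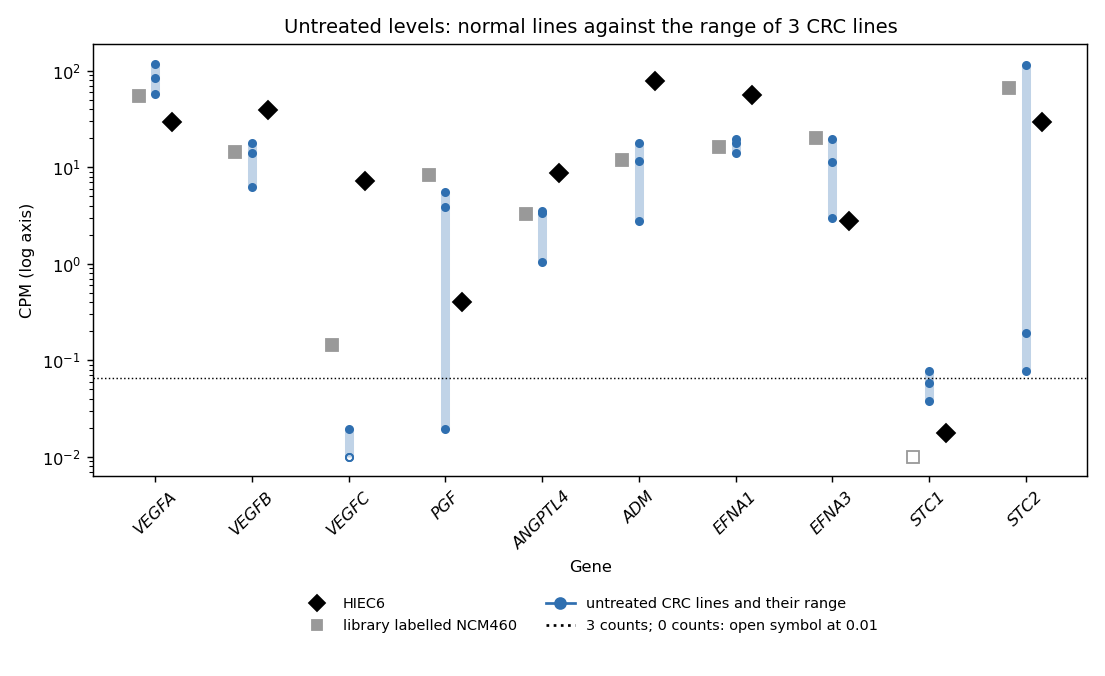
CPM (log axis) of each gene in HIEC6 (diamonds), the library labelled NCM460 (squares) and the 3 untreated CRC lines (points, with a bar over their range), with a dotted line at 3 counts in the shallowest library. HIEC6 stands above the bar for VEGFB, VEGFC, ANGPTL4, ADM and EFNA1, and NCM460 lies near or within it for most genes.

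The partners of these ligands were examined with the line as a block in edgeR's quasi-likelihood test. Of the VEGF receptors and co-receptors with VEGFD, 4 of 6 were tested and none was called in either direction. NRP1 and NRP2, co-receptors, had log2 fold changes of -0.16 and -0.24. Among the other angiopoietins and ANGPTL genes 3 of 12 were tested, and among the adrenomedullin peptides, enzyme and receptors 6 of 10, again with no call. PAM, which amidates adrenomedullin into its active form, had a log2 fold change of 1.06 (SE 0.20, adjusted p = 0.0562), and went from 67.0 to 139 CPM in DLD1, from 258 to 530 CPM in HCT116 and from 92.1 to 146 CPM in HCT8. ADM2, a related peptide, had -1.17 (SE 0.32, adjusted p = 0.121). With HCT116 left out PAM was called higher and ADM2 lower. Among the other ephrins and Eph receptors 15 of 20 were tested without a call, and the receptor EPHA2, which binds both member ephrins, had 0.20 and EPHB4 0.12.

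Other HIF targets, such as enzymes of glycolysis and oxygen sensing, were read beside the members. All 10 were tested, 8 rose with the line as a block (CA9, NDRG1, EGLN3, PDK1, BNIP3, KDM3A, P4HA1 and LDHA) and 0 fell. Of all 21045 genes, 156 were called higher (0.741%). The list median log2 fold change was 3.33, against a median of 1.38 for the 9 tested members and 0.03 for all genes. CA9 was at 0.115 CPM or less in the untreated CRC lines and passed the filter only through its hypoxia libraries. Among the CRC lines BNIP3 was read in HCT116, at 18.5 CPM untreated and 192 CPM under hypoxia, with at most 0.0871 CPM in any library of DLD1 or HCT8, so its call rests on that pair. Without HCT8 the calls left in this list were CA9 and EGLN3. EGLN3, the oxygen sensor PHD3, rose evenly in the 3 lines, with log2 ratios of 3.34, 3.67 and 3.56 in DLD1, HCT116 and HCT8 (blocked adjusted p = 0.000809, edgeR's quasi-likelihood test). LDHA, lactate dehydrogenase A, had log2 ratios of 1.92, 2.60 and 2.84, and NDRG1, a stress response gene, 3.34, 4.75 and 4.58. The difference between these genes and the members was not tested. Of 9 ATF4 targets, the genes of amino acid supply and stress to which STC2 also belongs, 6 fell with the block (ASNS, PSAT1, PHGDH, CHAC1, SESN2 and SLC7A11) and 0 rose, with a median of -1.62, where 44 of all 21045 genes were called lower (0.209%), and none of the 6 was called without HCT8. ASNS, asparagine synthetase, had log2 ratios of -2.35, -4.24 and -2.18, whereas STC2 in HCT116 had 1.41. Without the block no gene of these lists was called, nor in the comparison of CRC with normal lines.

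Over the 8 libraries, the genes whose level was most like that of VEGFA by Pearson's r of log2(CPM + 1) were CNOT2 (0.979), SLAIN2 (0.971), WAC (0.963), CFAP36 (0.961) and HK2 (0.956), of 13360 genes compared. Those most like ANGPTL4 were CHD9 (0.983), GPI (0.982), TBC1D10A (0.966), MED15 (0.965) and ZBTB25 (0.963). HK2 and GPI encode enzymes of glycolysis. Between members, r with VEGFA ran from -0.12 (VEGFB) to 0.670 (ANGPTL4), with 0.346 for ADM, and r with ANGPTL4 ran from 0.187 (EFNA1) to 0.727 (ADM), over the 8 members with a mean CPM above 2. These libraries share lines and runs, and r is a description here.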

How the data were processed

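Total RNA libraries of 5 untreated lines and of 3 CRC lines under hypoxia were used. The authors aligned reads to GRCh37.p13 by their methods, whereas the submitters' processing notes name HISAT2 2.0.4 and GRCh38, and they deposited raw counts per gene, without normalization. The counter, the strand setting and the treatment of multiply matching reads are not given in the sources used here. All 8 columns were used, and the sample titles that begin with their names gave line, treatment and replicate.

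CPM used column totals. Ratios within a line carry exact conditional binomial intervals (95%) from SciPy 1.17.1. Tests used edgeR 4.0.16 in R 4.3.3 (quasi-likelihood, TMM, Benjamini-Hochberg adjustment over all genes tested, threshold 0.05) on genes with 10 or more counts in 2 or more of the fitted libraries, and the standard error is the log2 fold change over the root of F. The method was tested on simulated data with a smaller residual spread than these libraries, so that test does not show its error rates here. Nothing in the labels says that libraries of a group came from separate cultures of 1 line, so p-values measure the spread between lines.

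The replicate number of a CRC library stands for its line and pairs the samples: deviations from the group mean correlated at 0.836, 0.857 and 0.820 within lines and at -0.611 to -0.0599 between them. Against the normal lines, equal numbers stand for unlike lines and make no pairs.

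The 10 members and all gene and marker lists were chosen with earlier results of these data known. All members are named, as are, of each further list, the genes called and the 2 with the highest mean CPM, and the 5 genes most correlated with VEGFA and with ANGPTL4. Alternatives were DESeq2 1.42.0, limma-trend (limma 3.58.1), other scalings, filters and pseudocounts, all 8 libraries in 1 fit, the block and each library left out. The fits that join the block with another choice were chosen after seeing the data. Transcript lengths and overlaps came from GENCODE release 44 on GRCh37, and promoter sequences from RefSeq on GRCh38.p14, matched by symbol.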

Additional observations from a re-analysis of the deposited data

Results flagged for a closer look

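PGF had opposite directions in different lines under the same treatment. Its log2 ratio of CPM, hypoxia over untreated, was -0.96 in HCT116, with 287 counts untreated and 156 under hypoxia, whereas it was 3.16 in DLD1 (1 and 10 counts) and 1.10 in HCT8 (202 and 374 counts). The direction in HCT116 was the same with TMM scaling (-0.61) and with upper-quartile scaling (-0.55). Each line had 1 library per treatment, and the difference between lines was not tested.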

How the results depend on the processing

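For hypoxia against untreated, edgeR without a block called 0 genes and 0 members, and DESeq2 called 51 and 1. With the line as replicate block 200 genes and 3 members were called. The block joined with another choice gave 1666 and 8 (DESeq2), 113 and 2 (limma-trend), 215 and 4 (upper-quartile normalization), 172 and 4 (column totals) and 165 and 2 (at least 10 counts in every library, 6 members tested), and ADM lay on either side of the threshold, with adjusted p from 0.00551 to 0.0648 over these fits. With libraries left out, the genes called ranged from 0 to 738 and the members from 0 to 6, with 292 and 5 without DLD1, 738 and 6 without HCT116 and 6 and 0 without HCT8 in the blocked fit. The members' median log2 fold change of 1.61 ranged from 0.99 to 2.39 and was 1.18 with block and column totals. PGF turned to -0.27 without untreated DLD1 and -0.65 without HCT8 under hypoxia (range -0.65 to 1.14 with 1 library left out), and STC2 to -7.74 without HCT116 under hypoxia (range -7.74 to 10.07). For CRC against normal, DESeq2 called 131 genes and 0 members, where edgeR called 0 and 0, and the block, which pairs nothing there, changed no call. EFNA3 turned to 0.043 with limma-trend. With libraries left out, PGF ranged from -1.52 to 2.68, EFNA3 from -0.91 to 1.79 and STC2 from -8.68 to 0.22, each turning direction without NCM460 (2.68, 1.79 and 0.22) and without DLD1 (0.0019, 0.34 and 0.19), and STC2 also without HCT8 (0.19). The median log2 ratio by line was 0.92 in DLD1 and 0.87 in HCT116 with 1 CPM added, and 1.81 (TMM) and 1.87 (upper quartile) in HCT116. The cause of these changes was not tested, except that 1 added CPM pulls the ratios of low genes toward 0 by construction. VEGFA, VEGFB, ANGPTL4, ADM, EFNA1, EFNA3 and STC1 kept a positive log2 fold change under hypoxia in every fit that tested them. Counts of 10 or fewer limit VEGFC in all CRC lines, PGF in DLD1, untreated STC1, and STC2 in DLD1 and HCT8, where only large ratios can be read.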

Other observations

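Other secreted angiogenic factors and inhibitors, from lists chosen with earlier results known, gave no call under hypoxia with the line as a block in edgeR's quasi-likelihood test, with 14 of 19 factors and 8 of 9 inhibitors tested. TGFA and TGFB1, growth factors and the most abundant of the first list, had log2 fold changes of 0.67 (SE 0.34, adjusted p = 0.340) and 0.52 (SE 0.20, adjusted p = 0.222). THBS1, an inhibitor of vessel growth, had -0.31 (SE 0.24, adjusted p = 0.532), and TIMP3, a metalloproteinase inhibitor, had 1.36 (SE 0.29, adjusted p = 0.0779). With HCT116 left out TIMP3 was called higher and CYR61, a matrix-bound angiogenic factor chosen for this call, was called lower. Both genes below were chosen after their values were seen. PDGFA, a growth factor for mesenchymal cells, went from 2.75 to 1.03 CPM in DLD1, from 20.7 to 468 CPM in HCT116 and from 5.32 to 6.02 CPM in HCT8, so that HCT116 alone was far higher, and the blocked adjusted p was 0.659. ANG, angiogenin, had log2 ratios of 2.20, 1.79 and 2.14 in the 3 lines, with a blocked log2 fold change of 2.16 (SE 0.44, adjusted p = 0.0734), and its level stayed at or below 3.57 CPM.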
